A study of Homo sapiens with 6 samples.

Results

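The genes described are 31 surface and effector genes of monocytes and macrophages, taken as a fixed list of symbols and measured in MV4;11 cells. MV4;11 cells are leukaemic blasts of the myeloid lineage, grown as an established human line that carries an MLL-AF4 fusion. Per the labels, 3 wells were kept for 3 h in 25 nM CA, given in the series title as cortistatin A, an inhibitor of the Mediator kinases CDK8 and CDK19, and 3 wells in the solvent DMSO. RNA from each well was hybridised to a single-colour Human U133 Plus array. The line, medium and time are shared by both groups, and the cells come from 1 leukaemia line, so no normal monocyte was measured. The labels do not say that the wells came from separate cultures, so each p-value below is set against a spread among arrays that may be technical alone.

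Of the 31 genes, 27 had a probe set annotated to that gene alone, among 19775 genes of the series measured in this way. FCGR3A, CD33, LILRB4 and CD68 had none and are not measured by that rule. Where a gene had several, the one brightest on average over the 6 arrays stands for it. The mean in DMSO lay above the median of all deposited values (3.75 on the log2 scale) for 18 members, called bright here, and at or below it for 9, called dim. CLEC12A lay just below that line, with a DMSO mean of 3.74, and ITGAX was the nearest above it, with 4.38. At the dim level a value close to background cannot be told from an absent transcript, so the dim members are given apart.

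Monocytes and macrophages engulf particles and read their surroundings through surface receptors. Integrins of the beta2 class bind complement and adhesion ligands, and Fc receptors bind antibody-coated targets. The Fc receptors and several lectins signal through tyrosine motifs called ITAMs, carried by the adaptors FCER1G and TYROBP or by the receptor itself, whereas receptors with ITIM motifs recruit phosphatases that dampen this signal. The effector side includes the phagocyte oxidase, lysosomal cathepsins and the S100 proteins of the cytoplasm. In acute myeloid leukaemia some of these genes are used as signs of monocytic maturation.

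Part of the list was bright, which by itself does not name a cell type. Of the measured markers of other lineages, 5 of 5 for granulocyte precursors and 4 of 9 for mature neutrophils were bright too. So were 3 of 4 for B cells, 2 of 5 for T cells, 3 of 4 for NK cells, 2 of 3 for erythroid cells and 3 of 4 for megakaryocytes. All 3 measured beta2 integrin genes, the adaptors FCER1G and TYROBP, FCGR2A, CD36, S100A8, S100A9, MNDA and AIF1 were bright, and so was the lysozyme gene LYZ, a monocyte marker, with DMSO mean 12.4. CD14, the lipopolysaccharide co-receptor that defines classical monocytes, was dim, at 2.63 ± 0.09 in CA and 2.74 ± 0.08 in DMSO (SD, n = 3 each). The macrophage receptors CD163, MRC1 and MSR1 and the classical monocyte genes S100A12, FCN1 and VCAN were dim as well. Only part of the monocyte and macrophage list was therefore bright in this line.

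No member passed the test between the CA and DMSO arrays. With limma, at a Benjamini-Hochberg adjusted p under 0.05 over all genes, 0 of the 27 measured members passed, where 0.582% of all genes did (88 higher and 27 lower). The smallest adjusted p among the members was 0.179, so none passed at 0.1 either, where 1.31% of all genes did. Tested over all probe sets, again none passed, where 0.0513% of all probe sets did. By unadjusted limma p, 8 of the 27 were under 0.05, and all 8 were higher with CA, where 6.81% of all genes were higher and 5.83% lower by that rule. They were FCGR1A, FCGR2A, FCER1G, CLEC7A, CD36, S100A9, CYBB and PLAUR. This count of 8 was 4 without DMSO replicate 1, 5 without DMSO replicate 2, and 5 over the mean of each gene's probe sets. Without CA replicates 1, 2 and 3 it was 9, 7 and 6. Over all 19775 genes the count at this p was 2499. It was 1952 without DMSO replicate 1 and 2293 over the mean of each gene's probe sets. Without CA replicates 1, 2 and 3 the count over all genes was 2137, 2314 and 2312. Of the 8 genes named, 6 were among the 18 bright members, where 7.63% of all bright genes were higher by this rule. No bright member was lower by it, where 7.21% of all bright genes were. The groups did not overlap for the same 6 bright members, with CA higher, and for 2 others, CTSS and CST3, with CA lower. Over all bright genes 12.5% did not overlap with CA higher and 12.4% with CA lower.

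The sizes were small. The median change of the 18 bright members was 0.05 on the log2 scale, against 0.0016 over all bright genes, and 13 of the 18 were above 0, where 50.8% of all bright genes were. Without CA replicate 3 that median was 0.02, and without CA replicate 2 it was 0.09. The largest change of a bright member was 1.19-fold. For all 18 bright members the 95% limma interval, not adjusted for the number of genes, lay between -0.29 and 0.45, within 1.5-fold in either direction. Among all 27 members only the dim CLEC7A had an interval that reached 1.5-fold. In simulated data of this design, with all 19775 genes tested and the changed ones drawn from the 12622 with a mean over the 6 arrays above the median, the test recovered 19% of 1.2-fold, 73.4% of 1.5-fold and 93% of 2-fold changes. The mean number of false calls was 8 at each of these sizes, with 200 changed genes in each simulated data set. In bulk RNA, fewer cells of a type and less RNA per cell cannot be told apart.

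**Figure D1:**
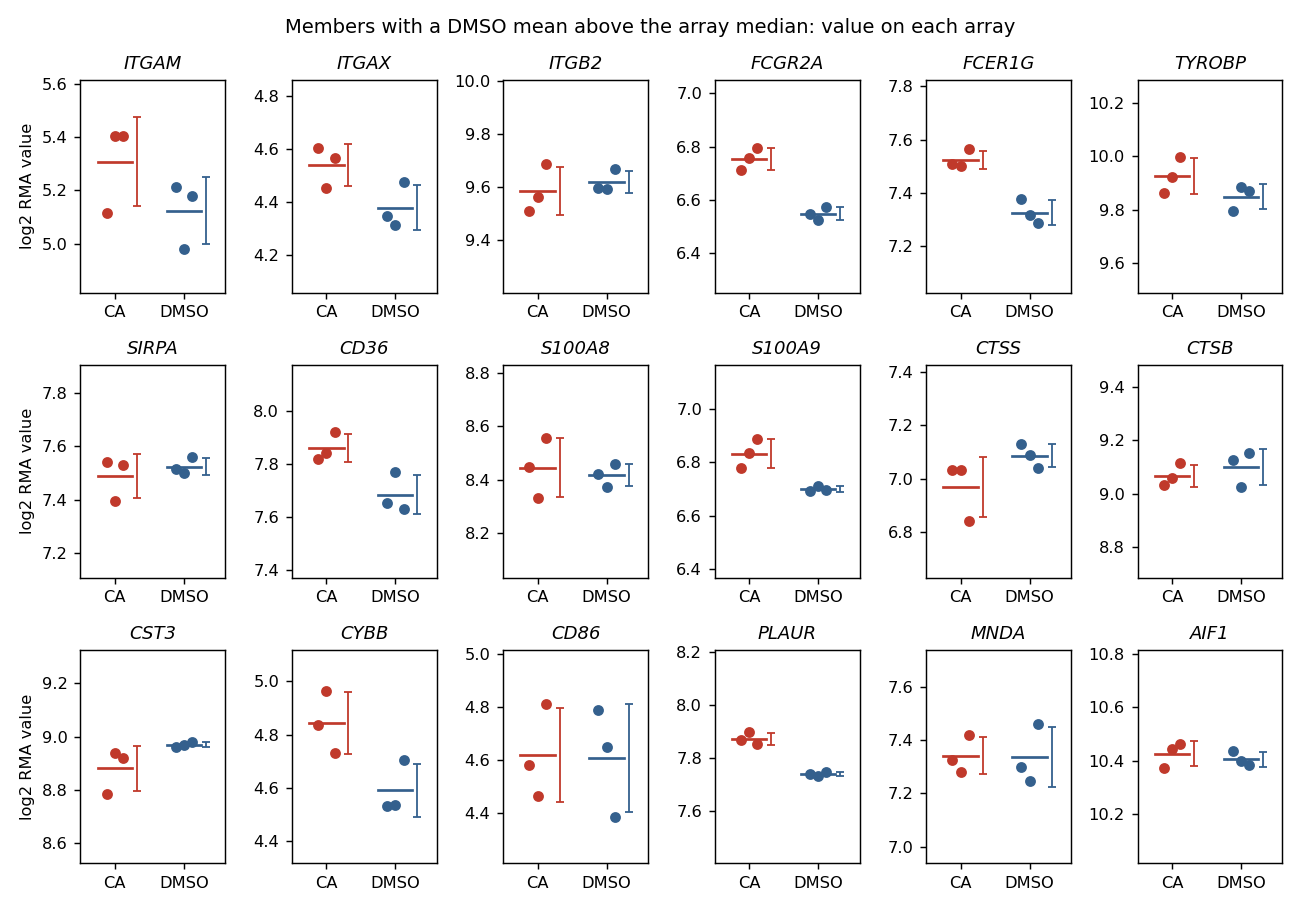
Deposited log2 RMA values of the 18 bright members on each array, with 1 panel per gene; points are arrays, horizontal lines are group means and bars are 1 SD (n = 3). Every panel spans 0.8 log2 units, and the CA points lie wholly above the DMSO points for FCGR2A, FCER1G, CD36, S100A9, CYBB and PLAUR and wholly below them for CTSS and CST3.

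An RNA quality measure moved with the groups. The 3' minus 5' log2 signal of the ACTB control probe sets was 1.88, 1.89 and 2.08 on the CA arrays, against 1.77, 1.69 and 1.79 on the DMSO arrays. For GAPDH it was 1.13, 1.12 and 1.17 on the CA arrays, against 1.08, 1.04 and 1.13 on the DMSO arrays, so the groups overlapped for GAPDH and not for ACTB. The mean of both was 1.54 ± 0.07 in CA and 1.42 ± 0.05 in DMSO (SD, n = 3 each). A two-sided exact permutation test of that mean gave p = 0.1, which is the lowest value possible with 3 arrays a group, and for GAPDH alone the exact p was 0.3. With this mean as a covariate 0 members passed, and 0 of all 19775 genes did. In that fit 2 members (the dim CLEC7A and S100A12) had an unadjusted limma p under 0.05, against 1805 of all 19775 genes. The standard errors of the members were larger. The median change of the 18 bright members was 0.0013 in that fit, and ITGAM was at -0.02 ± 0.15. Its part in the values below was not tested beyond this fit.

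The Fc receptor genes and their adaptors held the most members with a small p. They are shown with sequence because the promoters of FCGR1A and FCGR2A share a stretch of letters. Each line gives the 250 bases before the annotated start, 5' to 3' on the plus strand, from RefSeq on GRCh38.p14 (FCGR1A chr1:149782444-149782693, FCGR2A chr1:161505207-161505456, FCER1G chr1:161215045-161215294). Capitals mark GAGGAA, the core bound by the myeloid factor PU.1, or its reverse complement.
FCGR1A: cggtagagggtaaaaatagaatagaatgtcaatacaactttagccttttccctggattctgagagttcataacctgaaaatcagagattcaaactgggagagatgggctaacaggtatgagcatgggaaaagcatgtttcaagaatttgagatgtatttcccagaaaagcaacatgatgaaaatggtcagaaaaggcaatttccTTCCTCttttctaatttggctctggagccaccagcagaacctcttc
FCGR2A: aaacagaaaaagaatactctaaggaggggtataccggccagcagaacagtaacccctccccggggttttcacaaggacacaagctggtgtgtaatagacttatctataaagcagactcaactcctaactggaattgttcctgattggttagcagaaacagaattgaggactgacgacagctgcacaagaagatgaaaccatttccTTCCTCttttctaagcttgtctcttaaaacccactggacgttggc
FCER1G: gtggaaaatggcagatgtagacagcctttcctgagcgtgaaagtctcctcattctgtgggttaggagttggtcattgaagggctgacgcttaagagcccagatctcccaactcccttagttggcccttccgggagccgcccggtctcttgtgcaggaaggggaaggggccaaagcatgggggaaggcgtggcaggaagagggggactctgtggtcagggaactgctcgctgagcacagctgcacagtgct

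FCGR1A and FCGR2A share a run of 20 letters, atttccTTCCTCttttctaa, which runs from -52 to -33 relative to the start of FCGR1A and from -51 to -32 relative to that of FCGR2A. The run was picked as the longest stretch shared by these 2 windows, so both hold it by construction. Among 27305 genes with a promoter window no other held it. A stretch of this length picked from these 2 windows is no test of what they have in common. FCER1G has no GAGGAA in its window. Over the list, 17 of the 23 members with a window (73.9%) held GAGGAA on either strand, against 27.3% of all genes with a window. The longer form GAGGAAGT, which holds GAGGAA, was in the windows of 2 members (8.7%, against 2.65%). TTNNGCAA, a C/EBP-like pattern, was found for 5 members (21.7%, against 11%), TGANTCA, the AP-1 pattern, for 4 (17.4%, against 8.06%) and TATAAA for 7 (30.4%, against 13%). A match is a description of letters and not a site of binding.

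FCGR2A, the low-affinity IgG receptor with its own ITAM, was at 6.71, 6.76 and 6.79 on the CA arrays, against 6.55, 6.53 and 6.57 on the DMSO arrays. All 3 CA values lay above all DMSO values. The difference of 0.21 ± 0.05 on the log2 scale (SE) had the smallest p of the members but did not pass over all genes (limma adjusted p = 0.179, unadjusted 0.00448). With the 3' to 5' covariate it was 0.14 ± 0.08, and over the mean of its probe sets 0.04. The only other probe set of FCGR2A alone was dim and differed by -0.13.

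FCER1G, the Fc receptor gamma chain that carries the ITAM for FCGR1A and the IgE receptor, was at 7.51, 7.50 and 7.56 in CA, against 7.38, 7.31 and 7.29 in DMSO. The groups did not overlap, with a difference of 0.20 ± 0.05 (limma adjusted p = 0.196). When limma was run with its trend and robust options, FCER1G was the only member to pass (limma adjusted p = 0.035), where 3.85% of all genes did. Its second bright probe set differed by only 0.04, and with the 3' to 5' covariate the difference was 0.16 ± 0.09.

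FCGR1A, the high-affinity IgG receptor, has a single probe set of its own, which was dim, with 3.43, 3.22 and 3.30 in CA, against 3.16, 2.96 and 2.92 in DMSO. The groups did not overlap (0.30 ± 0.09, limma adjusted p = 0.239). A bright probe set that names FCGR1A together with the near-identical FCGR1BP and FCGR1CP was at 8.56, 8.55 and 8.66 in CA, against 8.24, 8.29 and 8.20 in DMSO. Its difference was 0.35 ± 0.07 (limma adjusted p = 0.18 over all probe sets, unadjusted 0.00107), and which of the 3 genes it reads cannot be told. TYROBP, the adaptor of TREM and other activating receptors, was at 9.86, 9.92 and 10.00 in CA, against 9.79, 9.88 and 9.87 in DMSO, with overlapping groups and a difference of 0.08 ± 0.06. A dim probe set that names FCGR3A and FCGR3B differed by 0.09.

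The beta2 integrins are pairs of an alpha chain with the common beta chain ITGB2. ITGAM, the alpha chain of complement receptor 3, was at 5.12, 5.40 and 5.41 in CA, against 5.21, 4.98 and 5.18 in DMSO. ITGAX, the alpha chain CD11c, was at 4.60, 4.45 and 4.57 in CA, against 4.35, 4.31 and 4.47 in DMSO. Both alpha chains were higher on average with CA, by 0.19 ± 0.10 and 0.16 ± 0.07, yet 1 CA array of each fell within the DMSO range (limma adjusted p = 0.524 and 0.397). The difference of ITGAM was 0.28 without CA replicate 1 and 0.11 without DMSO replicate 2, and that of ITGAX was 0.07 with the 3' to 5' covariate and 0.06 over the mean of its probe sets. ITGB2 was at 9.51, 9.56 and 9.69 in CA, against 9.60, 9.59 and 9.67 in DMSO, a difference of -0.03 ± 0.06. Its 3 bright probe sets lay between -0.05 and 0.11, so those of the common chain lay on both sides of 0.

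Among inhibitory receptors, SIRPA, which binds the don't-eat-me ligand CD47, was at 7.54, 7.39 and 7.53 in CA, against 7.51, 7.50 and 7.56 in DMSO. The groups overlapped, and the 95% interval of the difference was -0.18 to 0.11. Its other bright probe set differed by 0.11 with overlapping groups, and a dim one by -0.24 without overlap (limma adjusted p = 0.295 over all probe sets), so the probe sets of SIRPA did not share a direction. CLEC12A, an ITIM lectin used as a marker of leukaemic blasts, was dim and differed by 0.12 ± 0.11.

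CD36, the scavenger receptor for oxidised lipoproteins and fatty acids, was at 7.82, 7.84 and 7.92 in CA, against 7.65, 7.77 and 7.63 in DMSO. The groups did not overlap (0.17 ± 0.06, limma adjusted p = 0.299). Of its 4 bright probe sets 3 were above 0, with a range of -0.06 to 0.20. CLEC7A, the beta-glucan receptor dectin-1, had the largest difference of any member, 0.34 ± 0.10, on a dim probe set with 3.63, 3.59 and 3.71 in CA, against 3.30, 3.50 and 3.10 in DMSO (limma adjusted p = 0.25). The other 5 probe sets of CLEC7A were also dim and all lay below 0, down to -0.40, so the gene has no settled direction here. MRC1, the mannose receptor, differed by -0.16 ± 0.11, MSR1, the class A scavenger receptor, by 0.02 ± 0.10, and CD163, the haemoglobin-haptoglobin receptor, by 0.07 ± 0.11, all on dim probe sets with overlapping groups.

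**Figure D2:**
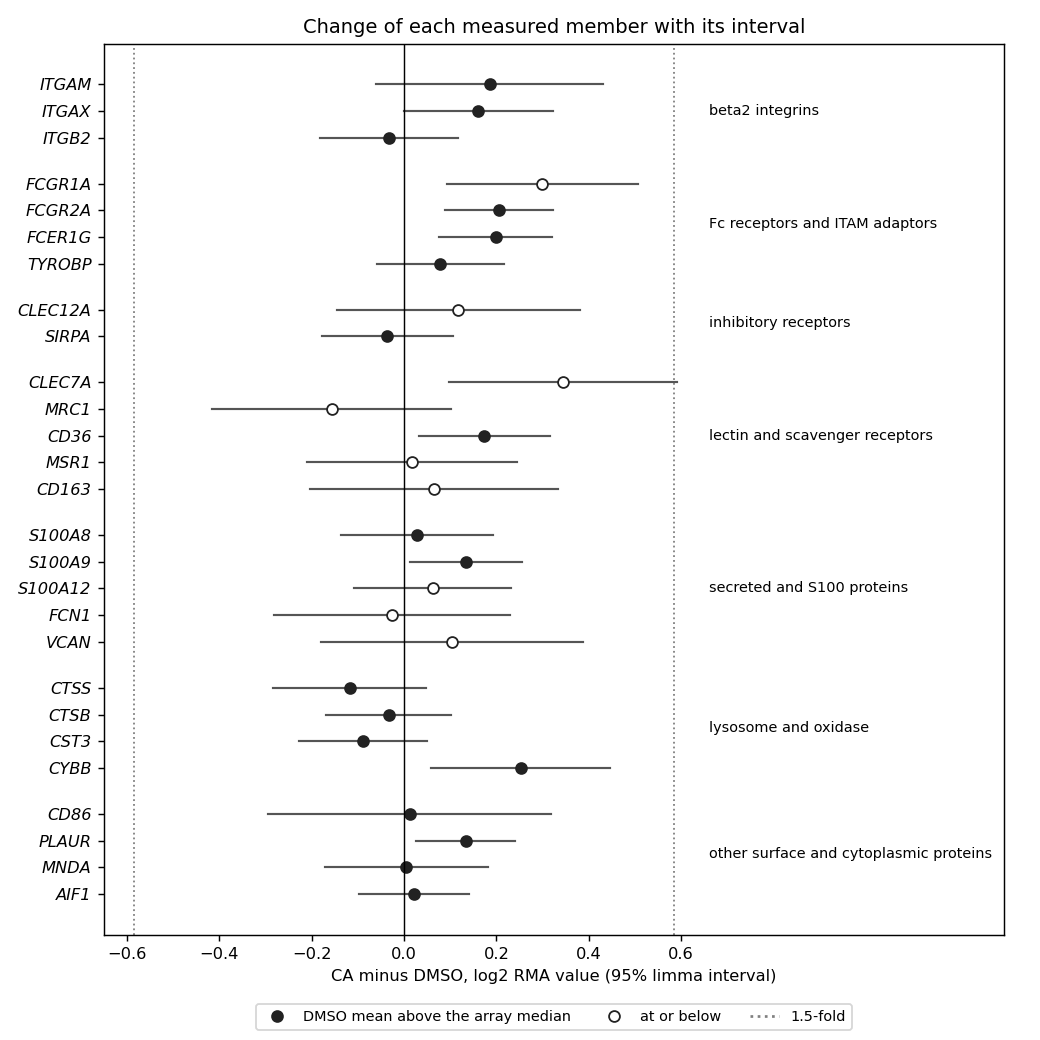
Difference between CA and DMSO for each of the 27 measured members on the log2 scale, grouped by role; points are limma estimates and lines their 95% intervals, filled for bright and open for dim members. The intervals of FCGR1A, FCGR2A, FCER1G, CLEC7A, CD36, S100A9, CYBB and PLAUR lie above 0, and only that of CLEC7A crosses the dotted 1.5-fold line.

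S100A8 and S100A9 form calprotectin, the main calcium-binding protein of the monocyte and neutrophil cytoplasm. S100A9 was at 6.78, 6.84 and 6.89 in CA, against 6.69, 6.71 and 6.70 in DMSO, without overlap (0.13 ± 0.05, limma adjusted p = 0.349). S100A8 was at 8.45, 8.33 and 8.56 in CA, against 8.42, 8.37 and 8.46 in DMSO, with the CA values spread over the whole DMSO range and a difference of 0.03 ± 0.07. Whether the 2 partners differ from each other in their response was not tested. Of the dim secreted members, S100A12 differed by 0.06, the lectin ficolin-1 gene FCN1 by -0.03 and the proteoglycan gene VCAN by 0.10, each with overlapping groups.

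CYBB, the catalytic subunit gp91-phox of the phagocyte oxidase, was at 4.84, 4.96 and 4.73 in CA, against 4.53, 4.54 and 4.71 in DMSO. This was the largest difference among the bright members (0.25 ± 0.08, limma adjusted p = 0.277), although the lowest CA value lay close to the highest DMSO value. Its other bright probe set differed by 0.09, and the mean over all its probe sets by 0.04. With the 3' to 5' covariate the difference was 0.31 ± 0.14.

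The cathepsin genes CTSS and CTSB and the cathepsin inhibitor gene CST3 had means slightly lower with CA on their brightest probe sets. None of them passed. CTSS, the cathepsin that trims the invariant chain, was at 7.03, 7.03 and 6.84 in CA, against 7.13, 7.09 and 7.04 in DMSO. The groups narrowly did not overlap, and the difference of -0.12 ± 0.07 did not pass (limma adjusted p = 0.548). CST3, the cathepsin inhibitor cystatin C, was at 8.78, 8.94 and 8.92 in CA, against 8.96, 8.97 and 8.98 in DMSO, likewise without overlap (-0.09 ± 0.06, limma adjusted p = 0.589), and its second bright probe set was at -0.15. Of the 3 bright probe sets of CTSS 1 was above 0, at 0.15. The difference of CTSS was -0.05 without CA replicate 3 and 0.04 with the 3' to 5' covariate, and that of CST3 was -0.04 without CA replicate 1. CTSB, cathepsin B, differed by -0.03 ± 0.06, and its 5 bright probe sets ranged from -0.16 to 0.15. A bright probe set that names CD68, a lysosomal membrane glycoprotein, together with SNORA67 differed by 0.16 ± 0.11, with overlapping groups.

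PLAUR, the urokinase receptor that holds this protease at the cell surface, was at 7.87, 7.90 and 7.85 in CA, against 7.74, 7.73 and 7.75 in DMSO, without overlap (0.13 ± 0.05, limma adjusted p = 0.295). Its 3 bright probe sets were all above 0, from 0.01 to 0.13. The co-stimulatory receptor gene CD86 (0.01 ± 0.13), the nuclear myeloid antigen gene MNDA (0.01 ± 0.07) and AIF1, a calcium-binding actin regulator (0.02 ± 0.05), were at nearly the same mean in both groups. A second bright probe set of CD86 differed by 0.22 ± 0.11, with overlapping groups (limma adjusted p = 0.545 over all probe sets). The interval of AIF1 was the narrower of these, -0.10 to 0.14, while that of CD86 was -0.29 to 0.32.

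Different probe sets of a gene were a further source of spread. The measured members had 75 single-gene probe sets, 39 of them bright, and 28 of the bright ones were above 0. The share over all bright probe sets was not taken. The 39 are not independent, because several come from the same gene, with 5 for CTSB and 4 for CD36. Of the 12 members with more than 1 bright probe set, 7 had all of them on one side of 0, namely AIF1, CD86, CYBB, FCER1G, PLAUR and S100A8 above it and CST3 below it. The same share over all genes was not taken, so this count is not read as a trait of the members.

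**Figure D3:**
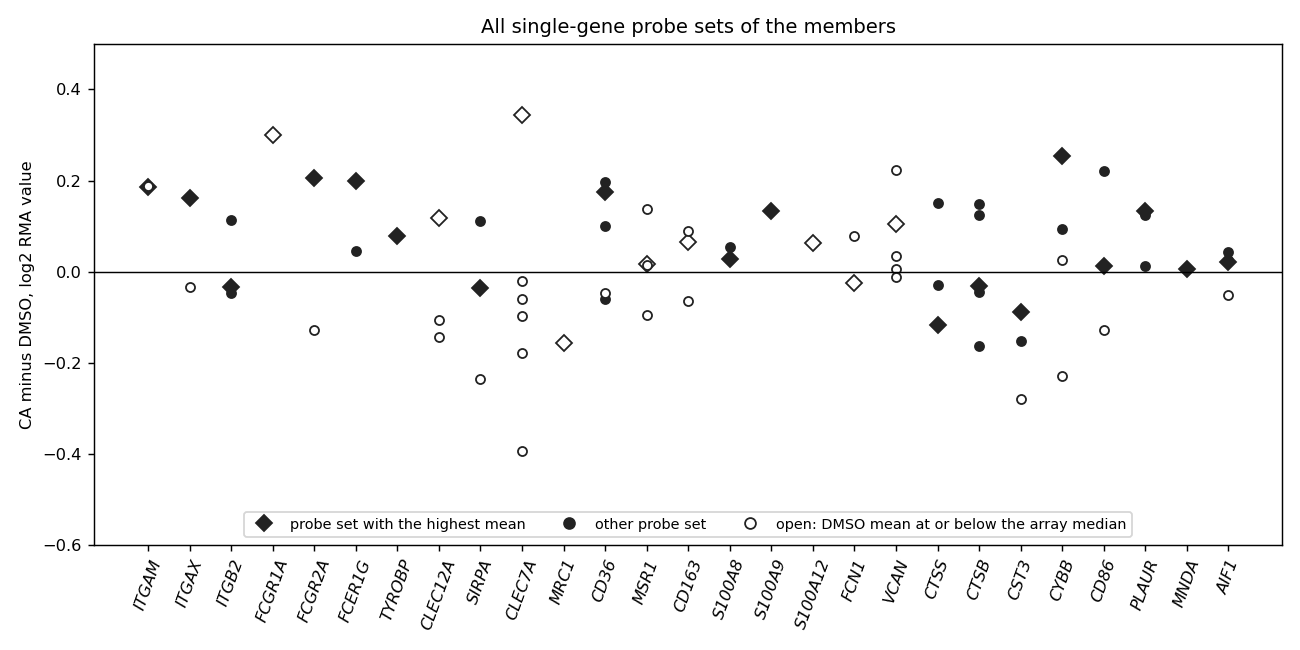
Difference between CA and DMSO on the log2 scale for each of the 75 single-gene probe sets of the measured members; diamonds are the probe sets used, circles the others, and open symbols are dim. The probe sets of CST3 all lie below 0, those of CLEC7A lie on both sides of it, and those of PLAUR all lie above it.

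Genes that work with the members were taken from 8 further lists, and 1 of the genes on them passed the test. LCP2, the adaptor SLP-76 that acts below ITAM receptors and the kinase SYK, was at 8.61, 8.62 and 8.73 in CA, against 8.01, 8.14 and 8.05 in DMSO. LCP2 rose by 0.59 ± 0.06 in log2 units, 1.5-fold, with 3 of 3 CA arrays above every DMSO array (limma adjusted p = 0.0227). Its 3 next brightest probe sets differed by 0.45, 0.35 and 0.23. The call of LCP2 ended when any 1 of the 6 arrays was left out (differences of 0.55 to 0.62, limma adjusted p 0.0845 to 0.113), with the mean of all its probe sets, 2 of them dim (0.26), and with the 3' to 5' covariate (0.55, limma adjusted p = 0.421). It also ended with the replicate block (limma adjusted p = 0.181) and over all probe sets (0.0572). The call held with dim genes left out (limma adjusted p = 0.00594), without the _x_at and _s_at types (0.0324) and with the further quantile normalization (0.0178). Both housekeeping centrings (0.0225 and 0.0177) and the trend and robust options (5.01e-06) kept it too. Over all genes, 0 passed with the covariate and 0, 3 and 0 without CA replicates 1, 2 and 3. In the list of ITAM and ITIM signalling genes 1 of 12 measured genes passed as higher and 0 as lower, where 0.445% and 0.137% of all genes did. All 12 were bright, with a median of 0.0057. At an unadjusted limma p under 0.05, 1 was higher and 1 lower, where 7.63% and 7.21% of all bright genes were. The groups did not overlap for 1 with CA higher and 3 with CA lower, where 12.5% and 12.4% of all bright genes did not.

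In the list of other activating and inhibitory receptors of myeloid cells 0 of 24 measured genes passed. At an unadjusted limma p under 0.05, 6 of its 16 bright genes were higher and 0 lower, where 7.63% and 7.21% of all bright genes were, and the median of the bright genes was 0.05. CD300A, an ITIM receptor for phosphatidylserine, had the smallest p, with 6.97, 6.82 and 6.79 in CA, against 6.48, 6.38 and 6.52 in DMSO (0.40 ± 0.07, limma adjusted p = 0.0764). Its second brightest probe set was at 4.11, 3.95 and 4.11 in CA, against 3.72, 3.67 and 3.87 in DMSO. That difference was 0.30 (limma adjusted p = 0.309 over all probe sets). The only probe set of CD300A that is not of the _s_at type was dim and differed by -0.02. The relative CD300LF, named after its value was seen, differed by 0.36 ± 0.06 (limma adjusted p = 0.079). For both genes the CA and DMSO values did not overlap, although neither passed. CD300A did pass with dim genes left out (limma adjusted p = 0.0255) and with the trend and robust options (0.00222).

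In the list of other monocyte genes 0 of 24 passed, with 3 of 18 bright genes higher and 0 lower at an unadjusted limma p under 0.05, against the shares of 7.63% and 7.21% of all bright genes. MS4A7, a tetraspanning protein of monocytes and macrophages, was at 7.16, 7.12 and 7.22 in CA, against 6.76, 6.83 and 6.67 in DMSO (0.41 ± 0.06, limma adjusted p = 0.0541). All 3 of its probe sets were above 0, from 0.24 to 0.52. MS4A7 lay close to the threshold: it passed with dim genes left out (limma adjusted p = 0.016) and over the mean of its probe sets (0.0247), and its adjusted p was 0.274 with the replicate block. In the remaining lists no gene passed, with 12 leukocyte integrin and anchor genes, 5 oxidase subunits, 13 lysosomal genes, 7 S100 and annexin genes and 2 genes of the urokinase system measured. Their genes with the smallest p were the integrin chain ITGA4 (0.13), the oxidase subunit NCF4 (0.07), the lysosomal cholesterol carrier NPC2 (-0.15), the annexin partner S100A10 (0.07) and urokinase itself, PLAU (0.04). The bright lysosomal genes had a median of -0.03, with 4 above 0 and 7 below.

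**Figure D4:**
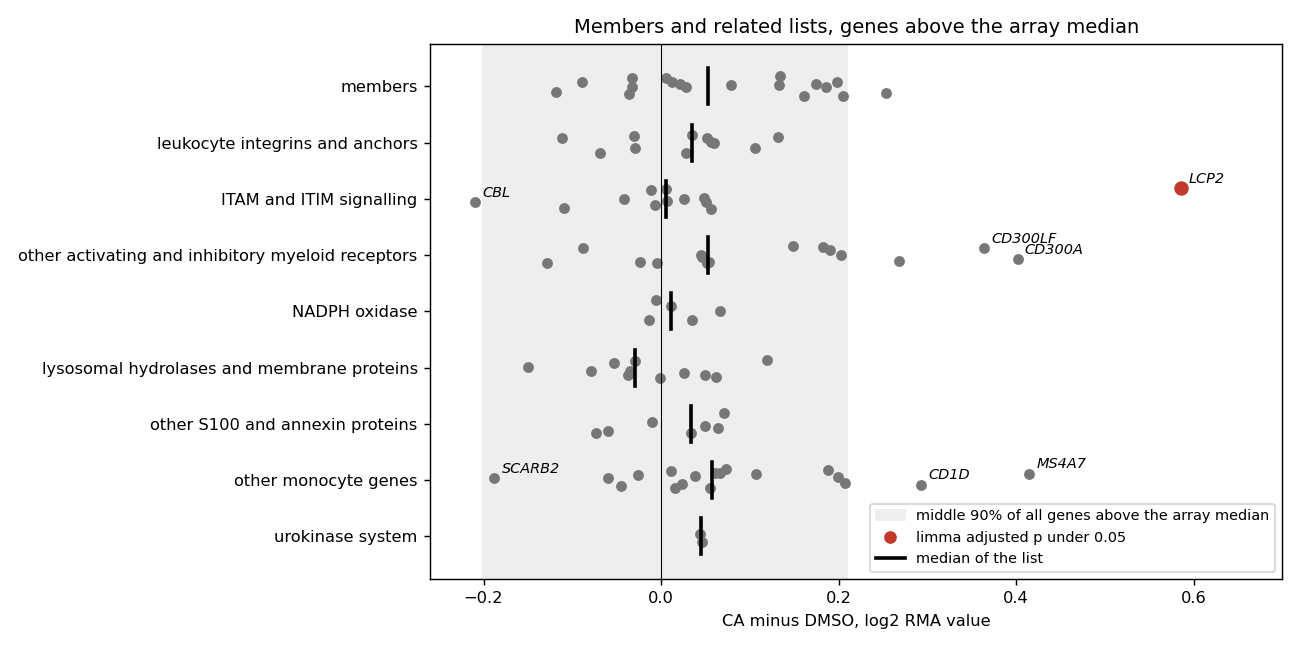
Difference between CA and DMSO on the log2 scale for bright genes, with 1 row for the members and 1 for each related list; points are genes, black bars list medians, and the grey band holds the middle 90% of all bright genes, from -0.20 to 0.21. Only LCP2 is marked as past the threshold, and of the bright members only CYBB lies outside the band.

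Markers of other blood cells gave the following background. The summed level of 5 granulocyte precursor markers was 10.82 to 10.88 on the log2 scale in CA and 10.85 to 10.88 in DMSO, and those of mature neutrophil, B cell, T cell, NK cell, erythroid and megakaryocyte markers overlapped between the groups as well. Among 4 measured dendritic cell markers the sums did not overlap, with 7.81 to 7.98 in CA and 7.60 to 7.73 in DMSO. This sum is mostly CLEC10A, a lectin of dendritic cells and macrophages, which was at 7.53, 7.64 and 7.73 in CA, against 7.28, 7.27 and 7.41 in DMSO (0.31 ± 0.07, limma adjusted p = 0.175). Of the defining dendritic markers CD1A and FCER1A were dim, and CD1C differed by 0.07 ± 0.13. All wells held MV4;11 cells, so these sums are levels in that line and not shares of blood cell types. Subsets of cells within the line were not tested.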

How the data were processed

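Arrays of 3 CA and 3 DMSO wells were read from the deposited table of probe set values. Per the submitters' processing notes the authors used RMA and the affy package, and no version, build or scan date is given in the sources used here. The deposited values are treated as log2, the scale on which RMA reports, and ran from 0.81 to 13.84. RMA in its usual form makes the arrays alike by quantile normalization, so a shift of all transcripts is removed. Precision is limited by the number of arrays.

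Of 54675 probe sets 62 were controls, 41091 named 1 gene, 1801 several and 11721 none in the platform annotation. Symbols of 41037 were updated through the RefSeq gene table. Genes were tested in R 4.3.3 with the limma package, version 3.58.1 (lmFit, then eBayes, group as the only term, two-sided, 4 residual and 2.68 prior degrees of freedom), with p adjusted over 19775 genes. Errors are standard errors unless SD is written. The test was tried on 10 simulated data sets with 200 changed genes each.

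The members and lists were chosen with earlier results of these data known, so no p over a list is given. Every member was named, and from each related list the genes past the threshold and the bright gene with the smallest p. Alternatives were the replicate block, dim genes left out, the mean of a gene's probe sets, probe sets without the _x_at and _s_at types, a further quantile normalization, housekeeping centring in 2 forms, trend and robust variances, the 3' to 5' index (the mean 3' minus 5' signal of the ACTB and GAPDH controls; a further control is not reported here), each array left out, all probe sets tested and an adjusted p under 0.1.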

Additional observations from a re-analysis of the deposited data

How the results depend on the processing

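Of 448 values of the members under the alternatives, 401 kept their direction and their side of the threshold. Part of this was fixed in advance, because some settings leave the difference itself unchanged. These were the replicate block, dim genes left out, trend and robust variances, all probe sets tested and an adjusted p under 0.1. Only the side of the threshold could change in them. The number of members past the threshold was 0 in all settings except 2, namely 1 (FCER1G, limma adjusted p = 0.035) with trend and robust variances and 4 with housekeeping centring on levels.

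That centring subtracted the median level of 15 housekeeping genes, which rests on the 1 gene in the middle. It lowered every change by the same amount and moved the median of all genes by -0.16, and the housekeeping genes themselves to a median of -0.16. It called 4040 genes, 2.95% of them higher against 76.5% with the deposited values. The bright members had a median of -0.11 there, and SIRPA (-0.20), CTSS (-0.28), CTSB (-0.20) and CST3 (-0.25) passed as lower. These are the values of one constant shift. The sign turned for ITGAX (-0.0037), TYROBP (-0.086), CLEC12A (-0.047), MSR1 (-0.15), CD163 (-0.099), S100A8 (-0.14), S100A9 (-0.031), S100A12 (-0.10), VCAN (-0.061), CD86 (-0.15), PLAUR (-0.032), MNDA (-0.16), AIF1 (-0.14), ITGA4 (-0.034), NCF4 (-0.099), S100A10 (-0.094) and PLAU (-0.12). Centring on the deviations of the same genes from their own means, chosen after seeing the data, moved the median of all genes by only -0.0081 and turned MNDA alone (-0.0029).

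The number of all genes past the threshold was 115. It was 0 with the replicate block, 321 among the 12622 genes with a mean over the 6 arrays above the median, 76 when a gene's probe sets were averaged, 54 without the _x_at and _s_at types, 762 with trend and robust variances, 0 with the 3' to 5' index, 260 at an adjusted p under 0.1, 28 over all probe sets and 0 to 4 with 1 array left out. At an unadjusted limma p under 0.05 the block gave 2243 genes, the index 1805 and the arrays left out 1952 to 2342. The deviations of CA and DMSO arrays that share a number correlated at -0.055, 0.0095 and 0.016. Those of arrays with unlike numbers correlated at -0.042 to 0.035. Whether arrays of the same number shared a batch cannot be told from these values.

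With the mean of all probe sets the sign turned for ITGB2 (0.011), CLEC12A (-0.044), CLEC7A (-0.068), FCN1 (0.026), CTSS (0.00099), CTSB (0.0062) and PLAU (-0.021). Without the _x_at and _s_at types it turned for CD163 (-0.064) and CD300A (-0.018). With the index the median of the bright members was 0.0013, and the sign turned for ITGAM (-0.022), S100A8 (-0.13), CTSS (0.035), CD86 (-0.11), MNDA (-0.17), AIF1 (-0.015), S100A10 (-0.028) and PLAU (-0.086). The cause was not tested.

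With 1 array left out the values ranged from -0.083 to 0.0043 for ITGB2, -0.057 to 0.11 for MSR1, -0.062 to 0.011 for SIRPA, -0.13 to 0.063 for FCN1, -0.027 to 0.085 for S100A8, -0.099 to 0.10 for CD86, -0.039 to 0.068 for MNDA, -0.042 to 0.19 for CD163, -0.016 to 0.18 for VCAN and -0.014 to 0.079 for PLAU. The sign turned within these ranges. The median of the bright members was 0.024 to 0.087 there. The call of LCP2 ended with the replicate block (limma adjusted p = 0.181) and over all probe sets (0.0572), at the same difference of 0.59. MS4A7 also passed with the further quantile normalization (limma adjusted p = 0.0411), both housekeeping centrings (0.0389 and 0.0439) and the trend and robust options (0.000692). For FCGR2A the limma adjusted p was 0.0602 to 0.869 over its alternatives.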
